A study of Rattus norvegicus with 12 samples.

Results

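Expression of 5 genes of fructose use and glycolysis was followed in rat liver across 4 diets. The genes are Slc2a5, Khk, Tkfc, Pfkfb1 and Pklr, and their probe sets were those to which the array annotation gives one of these symbols and no other. This rule found 9 probe sets for the 5 genes, among 8740 probe sets and 4736 named genes tested. Slc2a5 has 2 probe sets, Pfkfb1 has 4, and Khk, Tkfc and Pklr have 1 each.

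The livers came from male Sprague-Dawley rats that weighed 150 g at the start and were overfed by 17% of calories for 21 days by total enteral nutrition, a liquid diet given through a cannula into the stomach. The groups were 5% corn oil, 70% corn oil, 5% olive oil and 70% olive oil, with 3 single-colour arrays each, and each array held RNA pooled within a diet. Corn oil is rich in polyunsaturated and olive oil in monounsaturated fatty acids. The diets were isocaloric, so those with 70% fat held less carbohydrate, and more fat and less carbohydrate cannot be told apart. The number of rats in each pool is unknown here, and every p-value below rests on how far pools of 1 diet lay apart.

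Fructose can enter cells through the transporter encoded by Slc2a5 (GLUT5) and is phosphorylated by ketohexokinase (Khk). The product is split by aldolase, and its glyceraldehyde is phosphorylated by triokinase (Tkfc), which feeds the lower part of glycolysis. Glucose reaches the same part through phosphofructokinase, which is activated by a sugar bisphosphate that the bifunctional enzyme encoded by Pfkfb1 makes and removes. Liver pyruvate kinase (Pklr) carries out the last step of glycolysis, and its transcript is a textbook example of a gene induced in liver by carbohydrate through the factor ChREBP (Mlxipl) and lowered by fasting and by polyunsaturated fat.

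Values are on the log2 scale and centred on the median of the 12 arrays for every probe set, so 0 is that median, no absolute level is known, and levels of different genes are not compared. For the same reason the tissue label could not be checked by level; 6 of 7 hepatocyte markers had a probe set. Where a gene has several probe sets, their values were averaged. Errors of changes are standard errors (SE) of a linear model over all 12 arrays (limma), and adjusted p-values were taken over all genes of a comparison, with 0.05 as the threshold for a call. The arrays also differed in the 3'/5' index, a sign of RNA quality that subtracts, on the log2 scale, the 5' from the 3' control probe set of actin and of GAPDH and averages both. The control values are centred too, so the index is relative to the 12 arrays and gives no absolute ratio of 3' to 5' signal. Its mean was 1.28 ± 0.28 (SD, n = 3) with 5% corn oil and 0.71 ± 0.48 with 70% corn oil, against -0.36 ± 0.06 and -0.35 ± 0.10 with 5% and 70% olive oil.

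All 5 genes fell at 70% fat with corn oil, where 1.01% of all genes fell. Slc2a5 and Pklr also fell with olive oil, where 0.338% of all genes fell. The genes had been chosen with these falls known, so the counts are a description. The changes with corn oil ran from 1.49-fold lower for Pfkfb1 to 4.31-fold lower for Pklr, with a median log2 change of -1.22 against -0.0019 over all genes. With olive oil all 5 were lower, with a median of -0.56 against 0.026 over all genes. In pooled liver RNA, fewer cells that express a gene and less of its RNA per cell cannot be told apart.

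**Figure D1:**
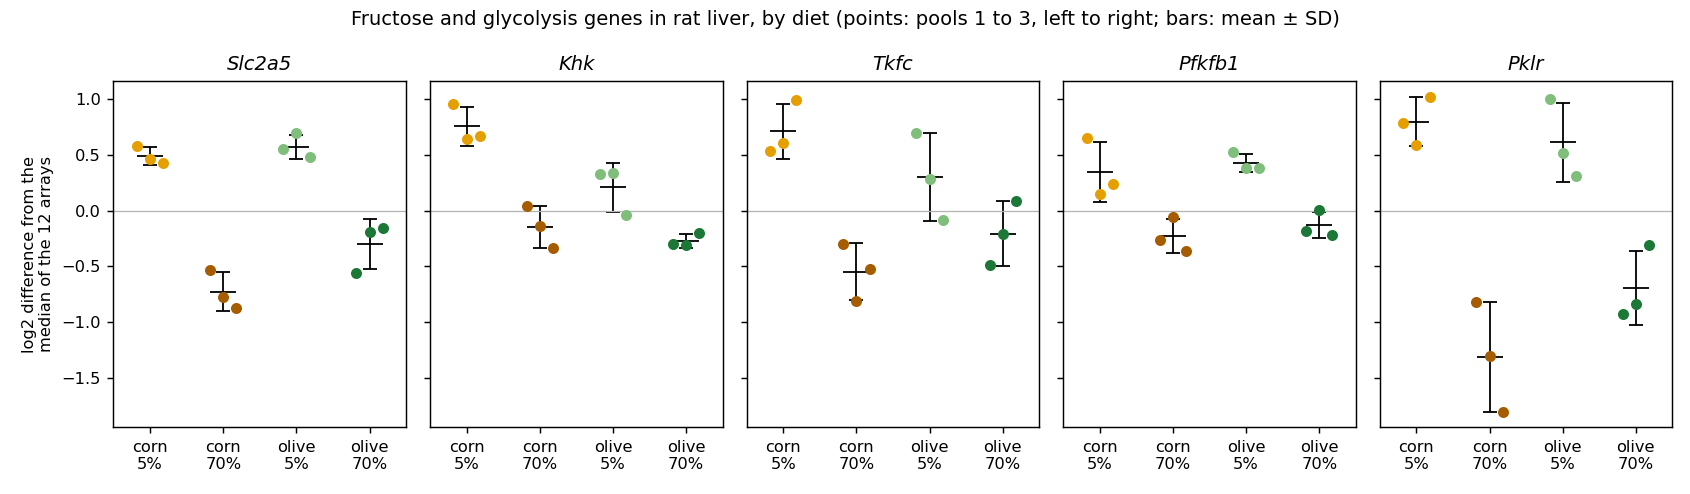
Values of the 5 genes on each array (y axis: log2 difference from the median of the 12 arrays; x axis: the 4 diets). Points are pools 1 to 3 and bars are mean ± SD; the 6 arrays of 70% fat lie below the 6 arrays of 5% fat for Slc2a5, Pfkfb1 and Pklr, while Khk and Tkfc overlap.

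Slc2a5 encodes the main fructose transporter of the intestine, and its absolute level in these livers is not known. With 5% corn oil its values in pools 1 to 3 were 0.58, 0.46 and 0.42, and with 70% corn oil they were -0.53, -0.77 and -0.87. With 5% olive oil they were 0.55, 0.69 and 0.48, and with 70% olive oil -0.56, -0.19 and -0.15. The groups of low and high fat were separate with either oil, and the 3 highest values at 70% fat belonged to olive oil pools 2 and 3 and corn oil pool 1. Slc2a5 was 2.32-fold lower with corn oil (log2 change -1.22 ± 0.12, adjusted p = 0.000208) and 1.83-fold lower with olive oil (-0.87 ± 0.12, adjusted p = 0.00465). Neither call was lost when any 1 of the 12 arrays was left out (adjusted p up to 0.00218 with corn oil and 0.0306 with olive oil).

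Khk encodes ketohexokinase, the fructokinase that commits fructose to the liver's pathway. Its values were 0.96, 0.64 and 0.67 with 5% corn oil against 0.04, -0.14 and -0.34 with 70% corn oil. With olive oil they were 0.33, 0.34 and -0.04 at 5% fat against -0.30, -0.31 and -0.20 at 70%. The 5% corn oil arrays thus held the 3 highest values of all 12, and pool 3 of 5% olive oil lay closest to the 70% arrays. Khk was 1.87-fold lower at 70% fat with corn oil (-0.90 ± 0.13, adjusted p = 0.00296). With olive oil the change was -0.48 ± 0.13 (95% interval -0.76 to -0.20, adjusted p = 0.188), which did not pass the test although the groups did not overlap; 7.28% of all genes had all 70% olive oil arrays below all 5% ones, and 10.2% with corn oil. After a second quantile normalization (-0.59, adjusted p = 0.0463) or with array weights (-0.55, adjusted p = 0.0103) Khk passed with olive oil too.

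Tkfc encodes triokinase, which acts on the glyceraldehyde released from fructose. With corn oil its values were 0.54, 0.60 and 0.99 at 5% fat and -0.30, -0.81 and -0.53 at 70% fat, without overlap. With olive oil they were 0.70, 0.29 and -0.09 at 5% fat and -0.49, -0.21 and 0.09 at 70% fat. Here the groups overlapped, since pool 3 of 5% olive oil was below pool 3 of 70% olive oil. Tkfc was 2.39-fold lower with corn oil (-1.26 ± 0.21, adjusted p = 0.00917), and its change with olive oil was -0.50 ± 0.21 (95% interval -0.96 to -0.05, adjusted p = 0.516). The corn oil call ended after a second quantile normalization (-1.16, adjusted p = 0.0803).

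Pfkfb1 encodes the liver isozyme of 6-phosphofructo-2-kinase, a switch between glycolysis and gluconeogenesis. As the mean of 4 probe sets its values were 0.65, 0.15 and 0.23 with 5% corn oil against -0.27, -0.06 and -0.36 with 70%. With 5% olive oil they were 0.52, 0.38 and 0.38, and with 70% olive oil -0.18, 0.0016 and -0.22. The fat levels did not overlap with either oil, and pool 1 of 5% corn oil stood highest. Pfkfb1 was 1.49-fold lower with corn oil (-0.57 ± 0.13, adjusted p = 0.0377) and was at -0.56 ± 0.13 with olive oil (adjusted p = 0.105). The near-equal changes lay on different sides of the threshold. Leaving out 1 array ended the corn oil call for 8 of the 12 arrays: all but pools 2 and 3 of 5% corn oil, pool 3 of 5% olive oil and pool 2 of 70% corn oil. Without pool 1 of 5% corn oil the change was -0.42 (adjusted p = 0.111), and the change with olive oil then passed (adjusted p = 0.026). After a second quantile normalization only the olive oil change passed (-0.62, adjusted p = 0.0165, against -0.47 and 0.0873 with corn oil). The corn oil call also ended with each array centred (adjusted p = 0.052), trend and robust moderation (0.0656), array weights (0.0903) and the arrays of both groups alone (0.172).

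Pklr encodes the pyruvate kinase of liver and red cells. With corn oil its values were 0.79, 0.59 and 1.02 at 5% fat and -0.82, -1.31 and -1.80 at 70% fat. With olive oil they were 1.0, 0.52 and 0.31 at 5% fat and -0.92, -0.84 and -0.31 at 70% fat. The fat levels did not overlap with either oil. The lowest 5% array and the highest 70% array were both pool 3 of olive oil, at 0.31 and -0.31. Pklr was 4.31-fold lower with corn oil (-2.11 ± 0.25, adjusted p = 0.000933) and 2.47-fold lower with olive oil (-1.30 ± 0.25, adjusted p = 0.0394). Its fall with corn oil was the fourth lowest change among the 4736 genes. With olive oil the call ended on leaving out any of the 6 arrays of 5% fat or pool 1 or 2 of 70% olive oil. The highest adjusted p was 0.218, without pool 1 of 70% olive oil. It also ended with each array centred (adjusted p = 0.0614).

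The promoter of Pklr is shown because carbohydrate control of this gene has been mapped to it. The sequence is that of RefSeq on GRCr8, the 250 bases before the start at chr2:176841014-176841263 (plus strand), and the capitals mark the match to the carbohydrate response element pattern searched.

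Pklr promoter: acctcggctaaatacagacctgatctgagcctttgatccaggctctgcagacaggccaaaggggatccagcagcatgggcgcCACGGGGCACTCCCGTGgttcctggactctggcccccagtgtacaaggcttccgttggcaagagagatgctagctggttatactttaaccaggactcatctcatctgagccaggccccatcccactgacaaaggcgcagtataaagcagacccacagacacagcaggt

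This pattern is a pair of E-box-like stretches 5 bases apart and reads alike on both strands. It matched Pklr from base 168 to base 152 before the start. The same pattern was in 7 of 33469 promoters of this length (0.0209%) and in none of the windows of Slc2a5, Khk, Tkfc and Pfkfb1. The E-box CACGTG (5.59% of promoters), GTTAAT, a part of the HNF1 pattern, (6.45%) and the HNF4 pattern CAAAGTCCA (0.338%) were searched on both strands and had 0 matches in all 5 windows. The E-box, HNF1 and HNF4 strings were searched as exact letters, and the carbohydrate response element pattern has fixed letters too. Variant sites would therefore be missed. A window without a match is thus not shown to lack a carbohydrate response element or sites for these factors. The Pklr promoter was known to hold such control before the search, so its match and the share of promoters are a description. A match describes the letters alone, and binding was not measured. The 5 genes lie on 5 different chromosomes: Tkfc on chromosome 1, Pklr on 2, Slc2a5 on 5, Khk on 6 and Pfkfb1 on X.

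Across both oils, all 6 arrays of 70% fat lay below all 6 arrays of 5% fat for 3 of the 5 genes, Slc2a5, Pfkfb1 and Pklr, and for 0.443% of all genes. Within each oil the groups were separate, both times with 70% fat lower, for 4 of 5 genes, all but Tkfc, and for 1.39% of all genes. In Khk and Tkfc, 1 array of 6 at either fat level lay on the other side of the median.

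**Figure D2:**
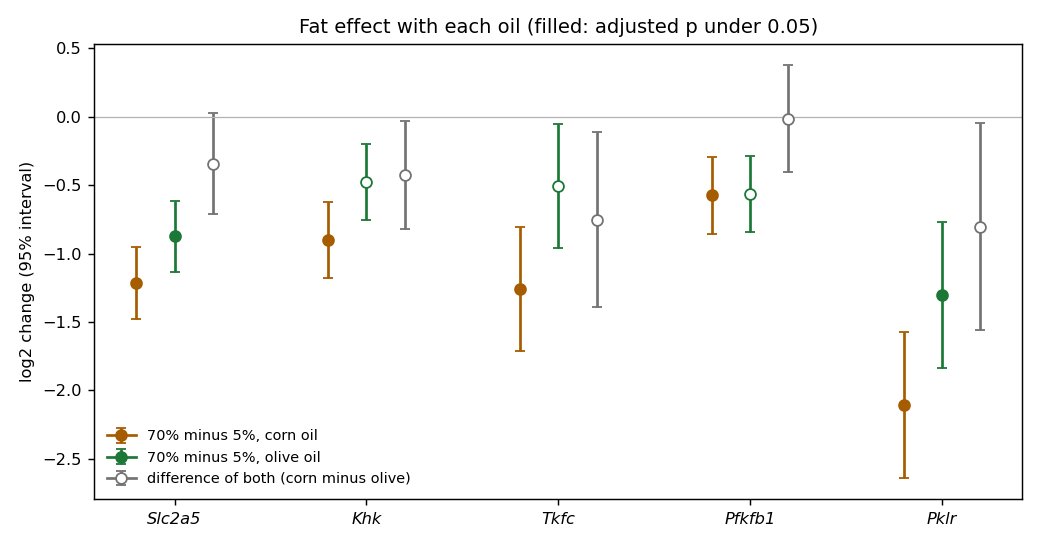
Log2 change from 5% to 70% fat for the 5 genes with corn oil and with olive oil, and the difference between both changes (y axis: log2 change; bars: 95% intervals of the model). Filled points passed the test; all 5 do with corn oil, Slc2a5 and Pklr do with olive oil, and no difference between the oils does.

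Whether the fall with fat differed between the oils was tested directly as the difference of both changes. The fall was larger with corn oil in all 5 genes by value. The difference, corn minus olive, was -0.80 ± 0.35 for Pklr (95% interval -1.56 to -0.05), -0.75 ± 0.29 for Tkfc (-1.39 to -0.11) and -0.42 ± 0.18 for Khk (-0.82 to -0.03). It was -0.34 ± 0.17 for Slc2a5 (-0.71 to 0.03) and -0.01 ± 0.18 for Pfkfb1 (-0.41 to 0.38). None of the 5 passed the test with limma (adjusted p from 0.35 to 0.989), and at an unadjusted p under 0.05 there were 3 of 5, against 11.9% of all genes. Over all genes 0 of 4736 passed (0% of genes), with 565 at an unadjusted p under 0.05, so a different size of the fall with corn and olive oil was not shown for any of them. On these arrays the index was lower by 0.56 at 70% than at 5% fat with corn oil (exact permutation test, two-sided p = 0.2). With olive oil it differed by 0.018 (p = 0.8 by the same exact test), and the smallest p that 3 against 3 can give is 0.1. With the index as a covariate Slc2a5 and Pklr were still called with corn oil, while Khk (-0.84 ± 0.17, adjusted p = 0.0506), Tkfc (-1.19 ± 0.28, adjusted p = 0.103) and Pfkfb1 (-0.63 ± 0.17, adjusted p = 0.169) were not.

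The oil comparisons use the same arrays as the fat comparisons, so they are not independent of them. At 5% fat Khk was 1.46-fold higher with corn than with olive oil (0.55 ± 0.13, adjusted p = 0.0123), and its groups did not overlap (24.3% of all genes had all 5% corn oil arrays above all 5% olive oil ones). It was the 1 member of 5 called there, where 8.42% of all genes were called higher and 16.9% called in either direction. The index differed by 1.64 between these groups (exact permutation p = 0.1, the smallest possible). With the index as a covariate the difference of Khk was 0.38 ± 0.35 (adjusted p = 0.917), after a second quantile normalization it was 0.37 (adjusted p = 0.0703), and without pool 1 of 5% corn oil it was 0.45 (adjusted p = 0.0537). Of the 6 hepatocyte markers 3 were called lower with corn oil between the same groups, where 8.49% of all genes were called lower. The mean of the 6 ran from -0.28 to -0.18 with 5% corn oil and from 0.06 to 0.13 with 5% olive oil. Of other cell types, 1 of 5 macrophage, 2 of 4 endothelial, 2 of 5 stellate and 2 of 4 biliary markers were called higher. Called lower with corn oil were 1 endothelial and 1 biliary marker, and 0 of 2 lymphocyte markers were called. The part of the index in these marker differences was not tested, nor was their part in the difference of Khk. Tkfc was at 0.41 ± 0.21 (adjusted p = 0.206) and Pklr at 0.19 ± 0.25 (adjusted p = 0.659), with overlapping groups in both.

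At 70% fat 0 of the 5 genes passed for corn against olive oil, while 6.93% of all genes did; 2 of the 5 had an unadjusted p under 0.05, against 22.1% of all genes. Slc2a5 was at -0.43 ± 0.12 (95% interval -0.69 to -0.16, adjusted p = 0.0533) and Pklr at -0.62 ± 0.25 (-1.15 to -0.08, adjusted p = 0.159). The value of Slc2a5 passed without pool 1 of 70% corn oil (adjusted p = 0.0482) or without pool 1 of 70% olive oil (adjusted p = 0.0341). Tkfc was at -0.34 ± 0.21, Khk at 0.13 ± 0.13 and Pfkfb1 at -0.10 ± 0.13. The index differed by 1.06 between these groups (exact permutation p = 0.1), and its part in the oil differences cannot be told apart from the oil, since its values did not overlap between the oils.

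The probe sets of Slc2a5 gave opposite answers on the oils at 5% fat. Those of Pfkfb1 differed as well, so the gene means above hide differences between them. The set D13871_s_at of Slc2a5 read 1.17, 0.97 and 0.80 with 5% corn oil and 0.48, 0.57 and 0.35 with 5% olive oil. The set D28562_s_at read -0.01, -0.04 and 0.05 with 5% corn oil and 0.62, 0.81 and 0.60 with 5% olive oil. The first was thus higher with corn oil (0.51 ± 0.15, adjusted p = 0.0285) and the second lower (-0.68 ± 0.14, adjusted p = 0.00443), where 10.1% of probe sets were called higher and 9.36% lower, and the groups did not overlap by either set. At 70% fat the second set was also lower with corn oil (-0.55 ± 0.14, adjusted p = 0.0303, where 4.55% of probe sets were called lower), and the first was at -0.31 ± 0.15 (adjusted p = 0.233). With the index as a covariate the second set was at -0.23 ± 0.24 there (adjusted p = 0.85). Of 1565 genes with more than 1 probe set, 54 had probe sets called in both directions in this comparison (3.45%), 5 in the comparison of the oils at 70% fat, and 0 in either fat comparison.

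**Figure D3:**
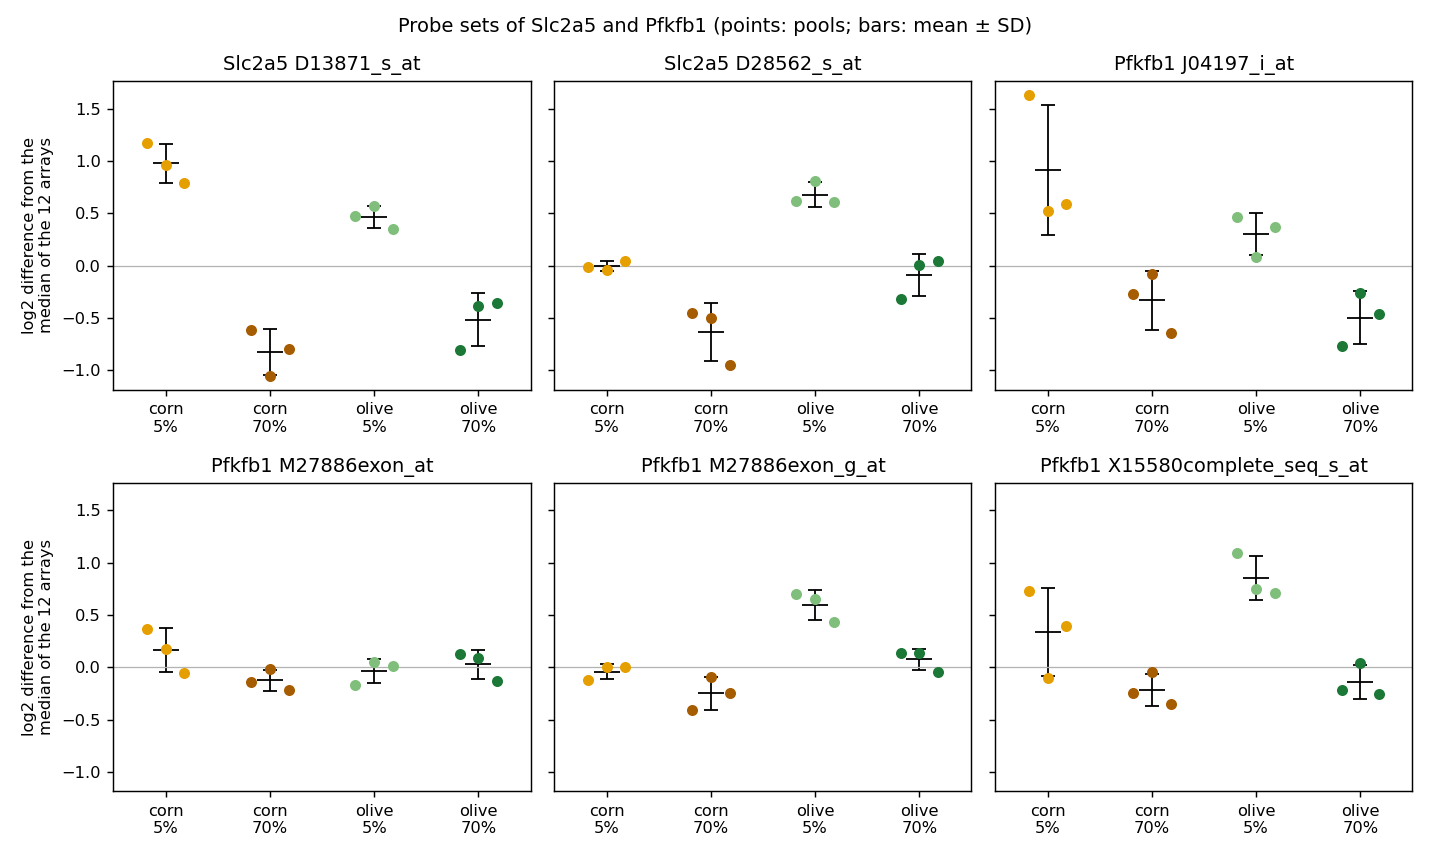
Values of the 2 probe sets of Slc2a5 and the 4 of Pfkfb1 on each array (y axis: log2 difference from the median of the 12 arrays; x axis: the diets; points: pools; bars: mean ± SD). The sets of Slc2a5 order the 5% corn and 5% olive oil arrays in opposite ways, and the set M27886exon_at of Pfkfb1 stays within 0.37 of 0 on all arrays.

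The fat effect of Slc2a5 was found by both sets. At 70% corn oil D13871_s_at read -0.62, -1.05 and -0.80 and D28562_s_at read -0.45, -0.50 and -0.95, and at 70% olive oil they read -0.80, -0.39 and -0.35 and -0.32, 0.01 and 0.04. The change with corn oil was -1.80 ± 0.15 (adjusted p = 0.000103) by the first and -0.63 ± 0.14 (adjusted p = 0.0377) by the second. With olive oil it was -0.98 ± 0.15 (adjusted p = 0.013) and -0.77 ± 0.14 (adjusted p = 0.0384). Both sets therefore passed in both comparisons, in which 0.801% and 0.309% of probe sets fell, and the sizes lay further apart with corn oil. The difference between the fat effects was -0.82 ± 0.21 by the first set (adjusted p = 0.267) and 0.13 ± 0.19 by the second (adjusted p = 0.84), so its sign depended on the set.

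The first set minus the second averaged 0.98 ± 0.22 (SD, n = 3) with 5% corn oil, where the index was highest, and -0.19 ± 0.35 with 70% corn oil. It averaged -0.21 ± 0.06 and -0.43 ± 0.05 with 5% and 70% olive oil. On the 5% corn oil arrays the index was 1.5, 1.36 and 0.97 in pools 1 to 3 and the difference 1.18, 1.01 and 0.75. On the 70% corn oil arrays the index was 0.95, 0.16 and 1.03 and the difference -0.16, -0.55 and 0.15. Within each of these diets the array with the higher index had the larger difference, and near an index of 1 the 5% array lay above both 70% arrays. The part of the index in this difference was not tested. With the index as a covariate, chosen after the values had been seen, the oil difference at 5% fat was -0.10 ± 0.36 by the first set and -0.20 ± 0.35 by the second, and the fat effect with corn oil was -1.59 ± 0.17 (adjusted p = 0.00245) and -0.80 ± 0.17 (adjusted p = 0.0794).

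**Figure D4:**
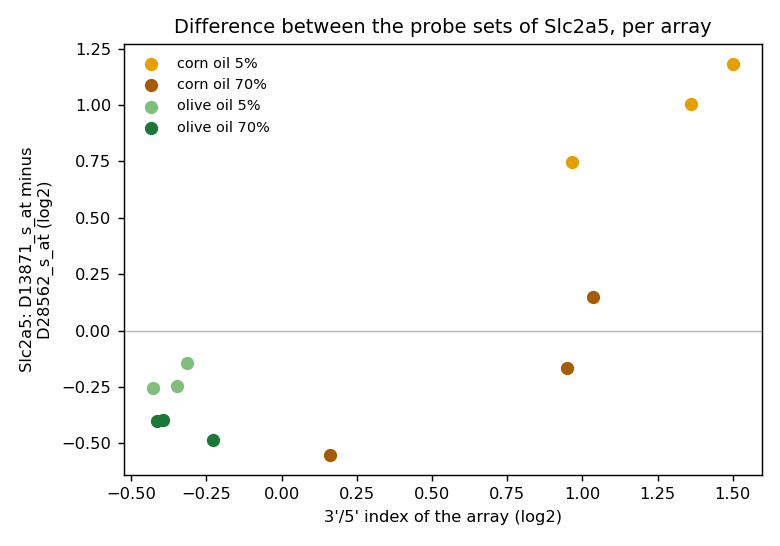
Difference between the probe sets of Slc2a5 (y axis: D13871_s_at minus D28562_s_at, log2) against the 3'/5' index (x axis, log2), 1 point per array and coloured by diet. The 5% corn oil arrays lie at 0.75 to 1.18, and the other arrays lie at 0.15 or lower.

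Of the 4 sets of Pfkfb1, J04197_i_at changed most with corn oil, from 1.63, 0.52 and 0.59 at 5% fat to -0.27, -0.08 and -0.64 at 70% fat (-1.25 ± 0.26, adjusted p = 0.0323; with the index as a covariate -1.29 ± 0.35, adjusted p = 0.197). Pool 1 of 5% corn oil was about 1 log2 unit above the other pools of its diet. The other 3 sets did not pass with corn oil, at -0.56 ± 0.18 for X15580complete_seq_s_at, -0.29 ± 0.12 for M27886exon_at and -0.21 ± 0.10 for M27886exon_g_at. With olive oil X15580complete_seq_s_at passed instead, from 1.09, 0.75 and 0.71 to -0.21, 0.04 and -0.25 (-0.99 ± 0.18, adjusted p = 0.0405). J04197_i_at was at -0.80 ± 0.26 (adjusted p = 0.34), M27886exon_g_at at -0.52 ± 0.10 (adjusted p = 0.0571) and M27886exon_at at 0.06 ± 0.12. At 5% fat M27886exon_g_at was lower with corn than with olive oil (-0.64 ± 0.10, adjusted p = 0.00136), where 9.36% of probe sets were called lower. With the index as a covariate it was at -0.32 ± 0.27 (adjusted p = 0.883). In the same comparison J04197_i_at was at 0.61 ± 0.26 (adjusted p = 0.123). Pfkfb1 is transcribed from several promoters into liver, muscle and fetal forms, and which form each set reads was not analysed here.

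Most of the neighbouring pathway genes did not pass. Of 15 measured glycolytic enzymes and their regulators other than the genes above, 0 were called with either oil for the fat level (limma), where 2.53% of all genes were called with corn oil and 0.549% with olive oil. At an unadjusted p under 0.05 there were 2 of 15 with corn oil and 1 of 15 with olive oil, against 18.9% and 8.19% of all genes. Their median change was -0.07 with corn oil and -0.02 with olive oil. The smallest p with corn oil was that of Gckr, the inhibitory protein of glucokinase (-0.38 ± 0.12, adjusted p = 0.11), and Pkm, the pyruvate kinase of other tissues, was at -0.17 ± 0.09 (adjusted p = 0.359). The other isozymes of Pfkfb1, Pfkfb2, Pfkfb3 and Pfkfb4, were at -0.07 ± 0.07, 0.05 ± 0.08 and 0.02 ± 0.08 with corn oil. In the 5 comparisons 0 of the 3 passed. There was 1 unadjusted p under 0.05 (limma), for the oils at 5% fat, against 30.1% of all genes in that comparison. Of 3 measured genes of fructose and polyol handling, among them Slc2a2, the main hexose transporter of hepatocytes (-0.27 ± 0.13 with corn oil, adjusted p = 0.294), 0 passed in either fat comparison. Of the 2 measured pentose phosphate genes, Taldo1 and Tkt, and the 4 of glycogen handling, 0 passed for the fat level, with unadjusted p under 0.05 for 1 glycogen gene with corn oil and for 1 gene of each list with olive oil.

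**Figure D5:**
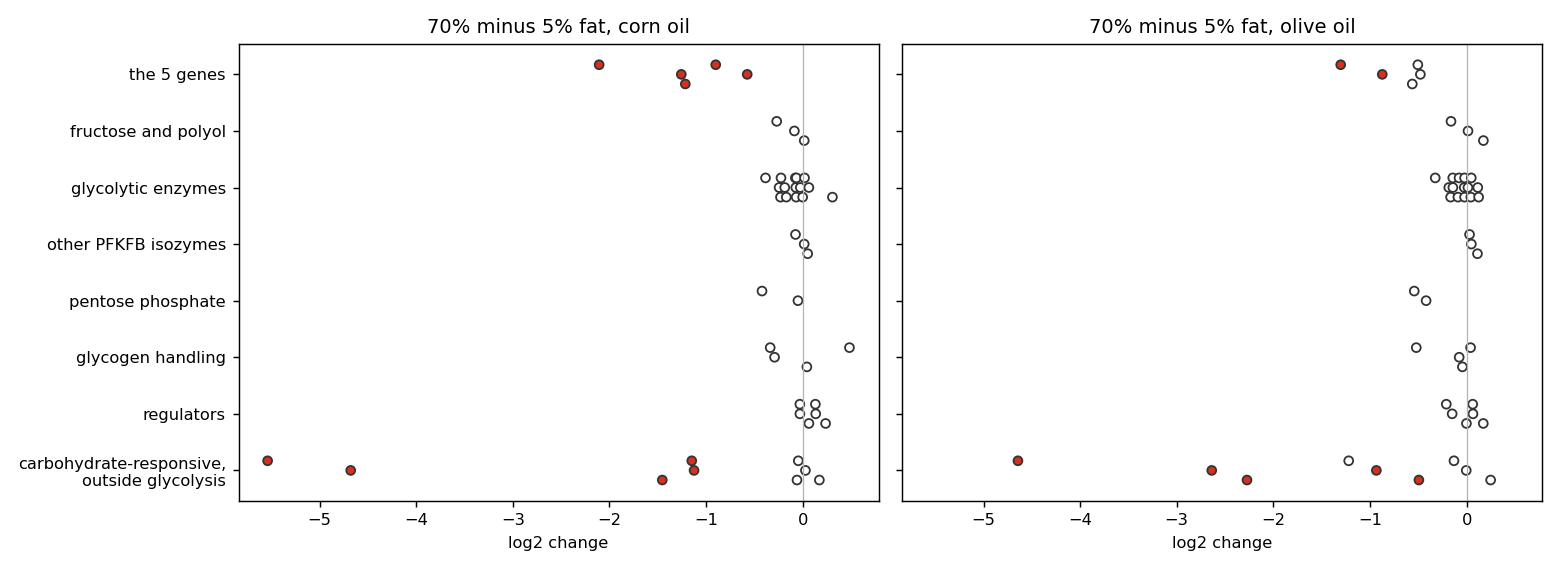
Log2 change from 5% to 70% fat (x axis) of each gene of the 5 and of the 7 pathway lists (y axis), with corn oil and with olive oil; 1 point per gene, and red points passed the test. Points left of -1 with corn oil are 3 of the 5 genes and 5 of the 9 carbohydrate-responsive genes outside glycolysis.

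Carbohydrate-responsive genes outside glycolysis, a list of targets shared with fatty acid synthesis, had more calls. Of 9 measured, 5 fell with corn oil, where 1.01% of all genes fell, and 5 fell with olive oil, where 0.338% did. With either oil 0 rose. Their median change was -1.12 with corn oil and -0.93 with olive oil, against -0.0019 and 0.026 over all genes. The list was chosen with earlier results of these data known, so the counts are a description. Those that fell with both oils were Pnpla3, Scd, Fasn and Acly. The value of Acly is a mean of 3 probe sets that differed. With corn oil J05210_at was at -1.65, J05210_g_at at -1.87 and L27075_g_at at 0.14 (limma, adjusted p = 0.6). Fasn was at -1.45 with corn oil as the mean of 2 sets, and at -2.63 by its set M76767_s_at. Me1, the malic enzyme, fell with corn oil (-1.15 ± 0.26) and was at -1.22 ± 0.26 with olive oil (adjusted p = 0.068). The 5 sets of Me1 ran from -1.88 to -0.24 with corn oil. Acaca, the acetyl-CoA carboxylase, fell with olive oil (-0.49 ± 0.07, adjusted p = 0.00722) and was at -0.05 ± 0.07 with corn oil. Txnip, a glucose-induced gene, was at 0.03 ± 0.10 and 0.25 ± 0.10, and Gpd1 at 0.17 ± 0.12 and -0.0036 ± 0.12, so the list did not move as a whole.

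Of 10 listed regulators of carbohydrate-responsive transcription 6 were measured, and ChREBP (Mlxipl) was not among the 6, so its transcript was not tested. Of these 6, 0 passed for the fat level with limma, and 0 had an unadjusted p under 0.05 in either fat comparison. Hnf4a, a hepatocyte factor, was at 0.24 ± 0.11 with corn oil (adjusted p = 0.27), and Srebf1 at 0.13 ± 0.24. Both, with the insulin receptor Insr, were lower with corn than with olive oil at 5% fat (Hnf4a -0.44 ± 0.11, adjusted p = 0.0169; Srebf1 -0.94 ± 0.24, adjusted p = 0.0195; Insr -0.37 ± 0.11, adjusted p = 0.0311). Over the 42 measured genes of the 7 lists, 12 were called in that comparison, where 16.9% of all genes were called. At 70% fat 6 were called, where 6.93% of all genes were. With the index as a covariate 0 of the 42 were called in either. The index did not overlap between the oils, so this fit cannot tell the index from the oil.

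Other glycolytic genes with calls between the oils at 5% fat were Aldoa, which encodes an aldolase and was lower with corn oil (-0.97 ± 0.19, adjusted p = 0.00459), and Gckr (0.48 ± 0.12), Pgam2 (0.32 ± 0.09) and Pfkp (0.29 ± 0.09), which were higher. Pgm1, the phosphoglucomutase of glycogen use, was lower with corn oil at 5% fat (-1.13 ± 0.15, adjusted p = 0.000605) and at 70% fat (-0.57 ± 0.15, adjusted p = 0.0442). In this group of 15 glycolytic genes 3 were thus higher and 1 lower with corn oil, against 8.42% and 8.49% of all genes.

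For each of the 5 genes the 3 other genes with the smallest root mean square difference over the 12 arrays were looked up; the arrays fall into 4 diets, so this describes a shared diet pattern. For Pklr they were Acly (0.45 log2), Me1 (0.48) and Pdk1, a pyruvate dehydrogenase kinase (0.54). For Slc2a5 they were Acly (0.21), Dlat, a subunit of pyruvate dehydrogenase (0.24), and Mtmr7 (0.27). Those nearest to Khk were Ybx3 (0.18), Inhba (0.21) and the mitochondrial pyruvate carrier Mpc1 (0.21). Tkfc had Olr59 (0.30), RT1-S3 (0.33) and Mllt3 (0.35), and Pfkfb1 had Atp5po (0.18), Dlat (0.18) and Fxyd2 (0.21). Among the 5 genes themselves Khk and Pfkfb1 were closest (0.28) and Pklr and Pfkfb1 farthest apart (0.72). Since the measure keeps the size of the values, genes of small change such as Pfkfb1 lie close to many others: Pfkfb1 itself lay 0.34 from a flat line at 0, and Pklr 0.94.

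Markers of other liver cells were tested for the fat level too. Of 5 macrophage, 4 endothelial, 5 stellate, 4 biliary and 2 lymphocyte markers measured, 1 passed with corn oil (limma), against 2.53% of all genes. It was the endothelial receptor Kdr (-0.65 ± 0.15, adjusted p = 0.0441). With olive oil 0 passed, against 0.549% of all genes. There 2 macrophage, 2 endothelial and 2 stellate markers had an unadjusted p under 0.05 (limma), against 8.19% of all genes. With corn oil 2 macrophage markers were lower at an unadjusted p under 0.05, Ptprc (-0.33 ± 0.09, adjusted p = 0.086) and Lyz2 (-0.52 ± 0.23, adjusted p = 0.252). The probe sets of Ptprc differed, with K03039mRNA_s_at at -0.94, M25823_s_at at -0.12 and M10072mRNA_s_at at 0.08. The macrophage marker Cd14 was at 0.30 ± 0.29. At an unadjusted p under 0.05, 2 hepatocyte markers were higher, Apoa1 (0.43 ± 0.15, adjusted p = 0.142) and Alb (0.18 ± 0.07, adjusted p = 0.193). The set rc_AA860062_g_at of Alb was at 0.59, and its other sets were at 0.10, 0.02 and 0.01. Of all genes 18.9% had an unadjusted p under 0.05 with corn oil. The mean of the 4 endothelial markers ran from 0.11 to 0.29 on the 5% corn oil arrays and from -0.05 to 0.04 on the 70% corn oil arrays. That of the 5 macrophage markers ran from -0.02 to 0.20 and from -0.21 to 0.08, and of the 6 hepatocyte markers from -0.28 to -0.18 and from -0.14 to -0.03. With olive oil the endothelial mean ran from -0.25 to 0.13 at 5% fat and from -0.40 to -0.25 at 70% fat, and the macrophage mean from -0.11 to 0.29 and from -0.23 to -0.01. Centred values do not show whether a marker is near 0, and the part of these markers in the falls of the 5 genes was not tested.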

How the data were processed

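The authors deposited log2 values of 8799 probe sets on 12 arrays; GCOS and RMA are the tools listed in the submitters' processing notes, which name no version. The base of the logarithm is not written in the table and was taken as 2, as RMA gives it. The median of every probe set over the 12 arrays was 0 within 5e-07, so the deposited values are centred and no absolute level, signal over background or filter on low values is available. The number of arrays limits the precision. There were 0 columns of other samples.

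After 59 array controls were left out, 8740 probe sets were tested, of which 7006 carried exactly 1 gene symbol, updated through the gene identifier to the GRCr8 annotation. Probe sets were averaged per gene (4736 genes). limma 3.58.1 in R 4.3.3 gave each diet a mean over 3 arrays with 8 residual degrees of freedom and eBayes moderation; the 5 contrasts were both fat effects, both oil effects and the difference of the fat effects, with Benjamini-Hochberg adjustment over all genes within a contrast. All p-values are two-sided. Probe sets were fitted in the same way over all 8740.

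The 5 genes, the lists and the markers were chosen with earlier results of these data known. Named genes are the 5 members, the list members past the threshold (or with the smallest p), and the 3 nearest genes of each member, skipping names that start with LOC or RGD. Promoters came from the RefSeq table of GRCr8, and all 5 genes were found in it. Alternatives were 1 value per probe set, the 3'/5' index as a covariate, another quantile normalization, each array centred on its median, trend with robust moderation, array weights (the index for single probe sets was added after the data had been seen), the pool number as a block, the arrays of both groups alone, and leaving out each array in turn. The scripts were tested on simulated data. The closest pair of arrays differed by 0.195 log2 (root mean square), and each was counted as 1 replicate. The echium oil diets of the protocol are not analysed here.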

Additional observations from a re-analysis of the deposited data

How the results depend on the processing

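Of the 5 genes called with corn oil for the fat level, 2 were called with the index as a covariate and 3 after a second quantile normalization; 4 to 5 were called without any 1 array. Pfkfb1 also lost its call with each array centred, trend and robust moderation, array weights and the arrays of both groups alone. The 2 called with olive oil became 4 after a second quantile normalization, 4 with array weights, 1 with each array centred, 1 with the replicate block, and 1 to 2 without any 1 array. For the oils at 70% fat the 0 became 1 with trend and robust moderation and 1 per probe set (0 to 1 without 1 array). At 5% fat the 1 became 0 with the index, 0 after a second quantile normalization and 3 per probe set (0 to 1 without 1 array). Calls among the 42 listed pathway genes with corn oil went from 5 to 3 with the index, 3 after a second quantile normalization and 3 on the arrays of both groups alone. They went from 6 to 0 with the index for the oils at 70% fat (3 to 10 without 1 array) and from 12 to 0 at 5% fat (5 to 15 without 1 array). The index did not overlap between the oils, so the fit with the index cannot tell it from the oil. For the difference of the fat effects the calls ran from 0 to 1 without 1 array. In the main fit 2.53% of all genes were called with corn oil and 0.549% with olive oil for the fat level. For the oils it was 6.93% at 70% fat and 16.9% at 5% fat. The shares of all genes under the other settings are not given here. Whether the counts moved more than those of all genes was not tested.

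Some signs turned. The fat effect of Pfkfb1 with olive oil, -0.56 as the mean of its sets, was at 0.0623 by M27886exon_at (0.0616 with the index). For corn against olive oil at 70% fat Pfkfb1 was at 0.0055 with the index and at 0.165 by J04197_i_at, and with the index at 0.237 by that set and at 0.0996 by X15580complete_seq_s_at. At 5% fat Pfkfb1 was at 0.0732 with the index, between -0.238 and 0.0138 without 1 array, 0.612 by J04197_i_at and 0.197 by M27886exon_at (0.723 and 0.128 with the index), and Slc2a5 at 0.512 by D13871_s_at. The difference of the fat effects of Pfkfb1 was 0.159 after a second quantile normalization, 0.0129 with each array centred and 0.0597 with array weights. It was 0.312 by M27886exon_g_at and 0.435 by X15580complete_seq_s_at (0.199 and 0.34 with the index), and ran from -0.11 to 0.142 without 1 array; that of Slc2a5, -0.34 as the mean of its sets, was 0.135 by D28562_s_at. The causes were not tested. The difference of the fat effects already uses all 12 arrays, so the arrays of both groups alone were not run for it. The fat effects of Slc2a5 with both oils and of Pklr with corn oil kept direction and call in every setting fitted on 1 value per gene. The pool numbers are not stated to pair the arrays: deviations from the diet means correlated between -0.19 and 0.23 for the same number and between -0.30 and 0.28 for other numbers. Besides the call of Pklr with olive oil (adjusted p = 0.0525), the replicate block changed no call of the 5 genes.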
